A study of Caenorhabditis elegans with 8 samples.

Results

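RNA-seq of whole *C. elegans* embryos was used to describe what embryos express in the cultures that served as the control of a *ztf-11* knockdown. The libraries were chosen by their labels: 4 of the 8 libraries of the series, each from a separate culture of animals fed bacteria that carry the empty RNAi vector L4440. The animals were of strain TV23837, with the genotype *ztf-11*(wy1100); *eri-1*(mg366); oxIs322; ynIs49. In this strain *ztf-11* carries a GFP tag and the *eri-1* mutation raises the sensitivity to RNAi, so none of the values below stands for a wild-type embryo. Synchronized L1 larvae were fed for 64 hr at the study's growth temperature, eggs were released by bleaching, and the eggs were kept for 3 hr in M9, a salt buffer without food, a time that the study's methods give for reaching the stage of gastrulation. Each library pools many embryos. No library of the knockdown was used.

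An embryo of *C. elegans* starts from RNAs that its mother loaded into the oocyte. The first genes of the embryo itself are switched on within a few divisions, and they set up the founder lineages of gut, muscle, pharynx, skin and nerve cells. After gastrulation the cells differentiate, the epidermis encloses and elongates the embryo, and it secretes an apical matrix and then the first cuticle, which is built largely of collagens. Vitellogenins are made in the intestine of the mother and major sperm proteins in germ cells that form sperm, so neither RNA is a product of the embryo.

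The libraries held between 39494873 and 45609675 counted reads, on 50606 RefSeq transcripts. Levels are given as CPM, the count of a transcript divided by the library size after TMM scaling over these 4 libraries and multiplied by 1000000, so 1 read is worth between 0.0215 and 0.0250 CPM. CPM is a share of reads and grows with transcript length. Classes and ranks by CPM are therefore classes and ranks of reads, and levels of different genes are compared per kilobase of exon. The cultures did not resemble each other equally. Cultures 1 and 4 were closest, with 47 of 7280 transcripts of at least 10 CPM (0.646%) differing 2-fold or more, whereas cultures 2 and 3 differed 2-fold or more at 1386 (19.04%). On log2 CPM the first principal component held 81.6% of the variance and placed culture 2 at -47.7, culture 3 at 31.4, culture 1 at 16.9 and culture 4 at -0.61. Culture 2 therefore stands apart, and culture 3 lies at the other end. Counts of transcripts with a 2-fold range are given below with and without culture 2.

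Genes with several counted transcripts had no count more often than genes with 1. Of 13441 protein-coding genes with 1 transcript, 10.4% had no count, against 48.9% of 523 genes with 4 or more counted transcripts. The polarity gene *par-3*, with 6 transcripts, had 0 counts in every library. The same held for *elt-1* and *lin-26*, GATA and zinc-finger factors of epidermal fate with 4 transcripts each, and for *elt-3* with 2. Some genes with 1 transcript were also listed at 0, among them the mitotic kinase gene *plk-1* and the actin gene *act-1*, which embryos use. A level of 0 is thus not read as absence here, and no upper limit is drawn from it. The genes *par-3*, *plk-1* and *act-1* were picked after their values were seen. Near-identical copies, such as *mex-5* and *mex-6*, *tbx-37* and *tbx-38* or the cyb-2 cyclins, may share reads in a way that cannot be resolved from counts, and overlapping or antisense genes carry the same doubt because the strand setting of the counting is not known.

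Of the 50606 transcripts, 10275 (20.3%) reached at least 1 CPM in all 4 cultures and held 99.6% of the counts. They covered 9035 gene symbols, and 1163 of them had no symbol in the tables used. At the other end 28411 transcripts (56.1%) had no count in any culture, 18058 of them with the identifier of a noncoding RNA. Between these lay 10699 transcripts above 0 and under a mean of 1 CPM. A further 4216 had a mean of 1 to 10 CPM, 4923 of 10 to 100 CPM and 2248 of 100 to 1000 CPM. Only 109 transcripts reached 1000 CPM, and these held 20.5% of the counts. The class of 100 to 1000 CPM held most, 58.5% of the counts, with 57.41% to 59.99% in single cultures. The 100 transcripts with most reads took between 18.2% and 20.5% of a library, and between 634 and 689 transcripts were needed to reach 50% of its counts.

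**Figure D1:**
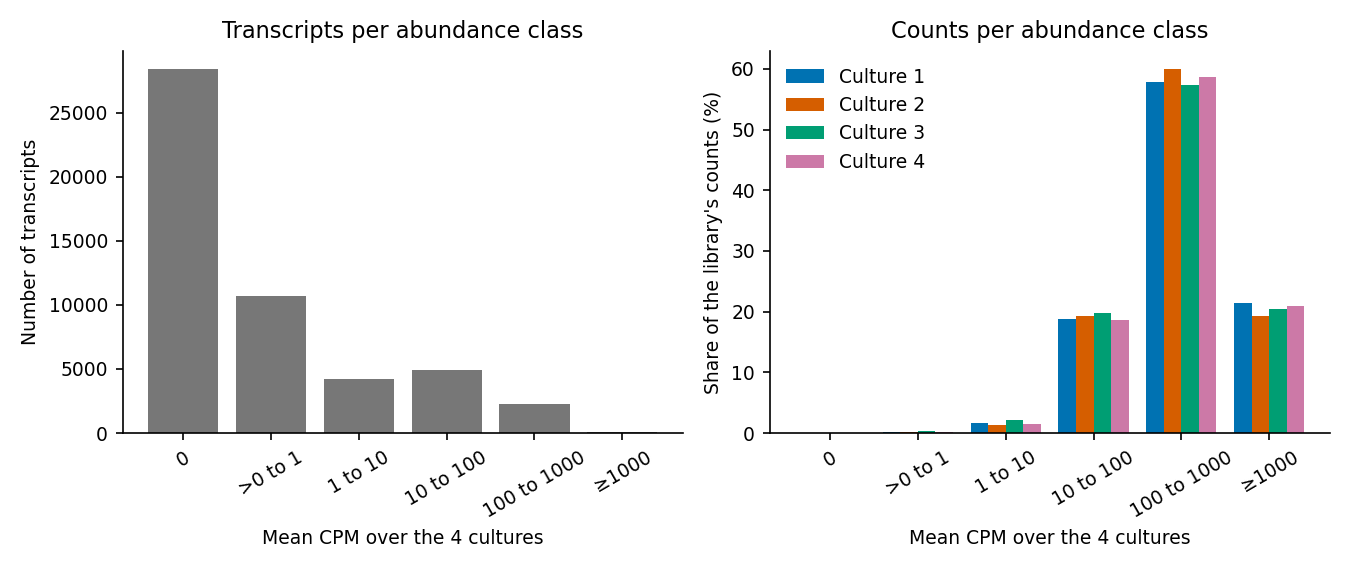
Number of transcripts (left) and share of each library's counts (right, 1 bar per culture) by mean CPM over the 4 control cultures. The 109 transcripts of 1000 CPM and over are few but hold 20.5% of counts, and the 4 cultures have almost the same profile.

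Among the 20 named transcripts with most reads were genes of protein synthesis and folding, of the apical matrix of the epidermis, and of metabolism and the cytoskeleton. The elongation factor gene *eef-1A.1*, which brings aminoacyl-tRNA to the ribosome, had 9416, 12976, 9897 and 9904 CPM in cultures 1 to 4. It was highest in culture 2 and alike in the other cultures. The cuticle collagen gene *dpy-17* had 13474, 8747, 8661 and 11197 CPM. It was highest in culture 1 and lowest in cultures 2 and 3. The collagen gene *dpy-14* had 8271, 5960.1, 5287 and 7247 CPM, in the same order of cultures. Compared per kilobase of exon, *dpy-17* ranked first of 13440 protein-coding single-transcript genes with 9469 CPM per kb, ahead of *eef-1A.1* with 6863. *F41F3.3*, a short gene, followed with 6403 CPM per kb and *dpy-14* with 6355. Only 79 of these genes reached 1000 CPM per kb. Over the 7192 detected protein-coding single-transcript genes, the ranks by CPM and by CPM per kb had a Spearman correlation of 0.926, a description across genes of the same libraries.

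Chaperones and enzymes of the secretory pathway had CVs under 10%. Transcripts of *crt-1*, the calcium-binding chaperone calreticulin, had 6199, 6834, 5562 and 6734 CPM, a CV of 9.22%. The cytosolic chaperone gene *hsp-90* had 4099.9, 4033, 4678 and 4186 CPM (CV 6.89%), and *hsp-1*, which codes for a constitutive Hsp70, had 3329, 2967, 3497 and 3478 CPM (CV 7.41%). Culture 2 was lowest for both, with ranges of only 1.16-fold and 1.18-fold. The disulfide isomerase gene *pdi-3*, which acts in the folding of collagen in the endoplasmic reticulum, had 2572 ± 185 CPM (mean ± SD, n = 4, as in the next values given with ±). Energy and lipid metabolism was represented by *atp-2*, a subunit of ATP synthase, with 2132 ± 133 CPM and by the fatty acid synthase gene *fasn-1* with 3076 ± 254 CPM. The sodium pump gene *eat-6* had 2933 ± 599 CPM. Tubulin of the spindle and of the embryo's axons is built in part from TBB-2, whose gene had 2576, 4251, 3099 and 2658 CPM and was highest in culture 2.

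Genes of the apical matrix were among the top 20 as well. The zona pellucida domain protein gene *noah-2*, which is needed for the embryonic sheath, had 3322, 3536, 2224 and 3719 CPM. Culture 3 was lowest and the other cultures were alike. The cuticlin gene *cut-2* had 3455, 1778, 2522 and 2604 CPM and was highest in culture 1 and lowest in culture 2. Of the ribosomal protein genes in the top 20, *rplp-0*, *rpl-6*, *rpl-8*, *rpsa-1* and *rpl-4*, the levels lay between 2066 ± 118.8 and 2554 ± 222 CPM. One noncoding transcript, *T05E11.9*, was among those with most reads, at 5731, 3778, 4878 and 4759 CPM, highest in culture 1 and lowest in culture 2.

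Stage markers from oocyte to late embryo were present together. Of 29 matched genes for maternal and early fate RNAs, 20 were detected (at least 1 CPM in all 4 cultures), with a median of 30.6 CPM over the 29. Of all protein-coding genes 48.8% were. That share is from counts summed over a gene's transcripts, while list and family members are read from 1 transcript. The same share stands beside the detected counts of the other lists. The CCCH zinc-finger gene *mex-5*, which polarizes the zygote, had 105, 313, 142.4 and 127 CPM. Culture 2 stood 2.98-fold above the lowest, culture 1, and the other cultures lay between 105.0 and 142.5. The same order held for *spn-4*, an RNA-binding protein gene of early blastomere fate, with 150.5, 417, 171 and 164 CPM. For *oma-1*, a regulator of the oocyte-to-embryo transition, the values were 31.2, 105, 41.4 and 34.7 CPM. The *mex-5* paralog *mex-6* had 44.9, 162, 61.6 and 54.1 CPM. The member with most reads, *zyg-9*, had 458, 702, 518 and 489 CPM, a range of only 1.53-fold. Of the 19 members of this list with a mean of at least 10 CPM, 18 were highest in culture 2, where 53.3% of all 7280 such transcripts were highest. A 2-fold range was seen in 15 of the 19, against 23.9% of all transcripts at that level. Without culture 2, 0 of the 19 had one, and 354 of all 7280. The exception was *skn-1*, a bZIP factor of mesendoderm fate, with 60.3, 49.2, 57.5 and 53.5 CPM, which was lowest in culture 2 and was picked after its values were seen. The summed level of the list was 1390.3, 3069, 1580.4 and 1530.3 CPM in cultures 1 to 4.

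Genes for the eggshell and the oocyte surface with a mean of at least 10 CPM were also highest in culture 2. Defining markers with a mean under 1 CPM were not. The gene *rme-2* had 0.662, 0.410, 0.301 and 0.250 CPM, highest in culture 1. The gene *perm-4* had 0.530, 0.748, 1.51 and 0.801 CPM, highest in culture 3, and neither was detected. The eggshell gene *cbd-1*, which anchors the vitelline layer, had 26.8, 66.6, 41.3 and 29.3 CPM, and the chondroitin proteoglycan gene *cpg-2* had 22.9, 55.4, 30.6 and 22.5 CPM. Both were highest in culture 2 and next highest in culture 3. The C-type lectin gene *clec-87* had 428, 1250.0, 525 and 489.6 CPM, and per kilobase 701 against 9.71 for *cbd-1*. Of 7 eggshell and oocyte genes of at least 10 CPM, all were highest in culture 2 (5 of 7 when the libraries were scaled by totals alone). With TMM scaling, 53.3% of all transcripts were highest there, and under library totals 3115 of 7280. The gene *perm-5* varied least with 157, 165, 147 and 157 CPM.

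The first genes of the embryo's own genome were counted at varied levels. The list held 24 matched genes, 16 of them detected, against 48.8% of all protein-coding genes, with a median of 6.90 CPM. The early zygotic gene *pes-10*, an old marker of the first transcription in the embryo, had 20.01, 83.8, 25.3 and 27.7 CPM. The endoderm GATA factor gene *end-1* had 8.08, 26.8, 8.32 and 8.84 CPM, and its partner *end-3* had 2.03, 4.22, 3.83 and 2.48 CPM. All 3 were highest in culture 2. The T-box gene *tbx-37*, which acts in fate choice of the anterior AB lineage, had 6.12, 16.42, 7.66 and 6.48 CPM. Most reads of the list fell on *vet-6* with 148, 460.4, 161 and 157 CPM and *vet-1* with 68.4, 220.4, 60.9 and 73.3 CPM, both named for very early transcription. The homeobox gene *ceh-51* of the MS lineage had 10.3, 41.1, 12.7 and 14.1 CPM. Of the 11 genes of this list with at least 10 CPM, 10 were highest in culture 2, against 53.3% of all transcripts. The summed level was 422, 1204, 441 and 489 CPM.

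**Figure D2:**
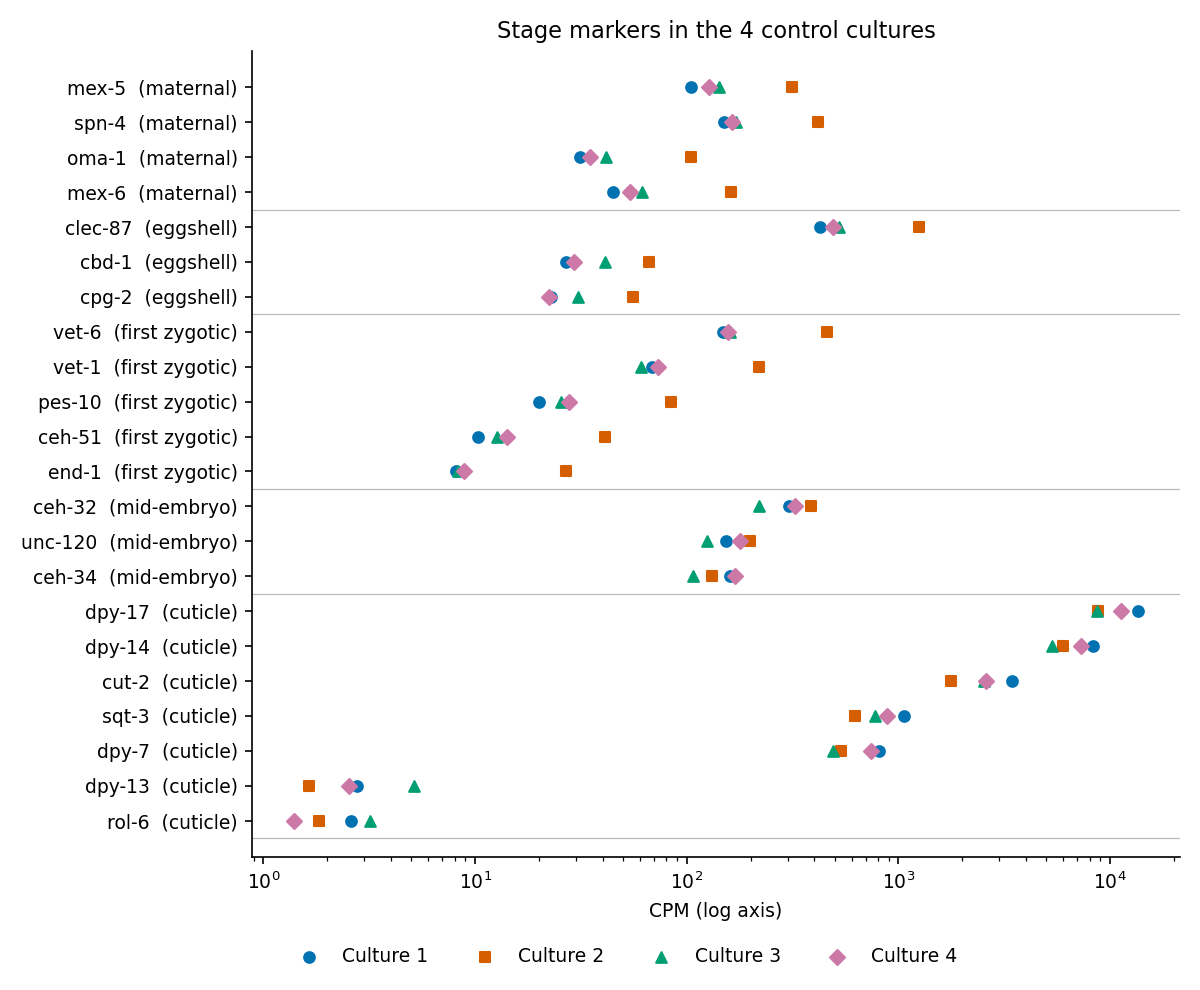
CPM of stage markers in each of the 4 control cultures (log axis, 1 point per culture). The maternal, eggshell and first zygotic genes have culture 2 to the right of the other 3, while the mid-embryo genes have culture 3 lowest. The cuticle genes *dpy-17*, *cut-2* and *sqt-3* have culture 2 to the left of culture 1.

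Lineage factors of the middle of embryogenesis had a median CV of 19.7%, and of 16.9% without culture 2. Over all transcripts these values were 20.99% and 11.8%. Of 21 members with at least 10 CPM, 14 were highest in culture 2, against 53.3% of all transcripts. Of 33 matched genes 23 were detected, against 48.8% of all protein-coding genes. A 2-fold range was seen in 3 of the 21, against 23.9% of all transcripts. Without culture 2, 0 of the 21 had one, and 354 of all 7280. The Six-family homeobox gene *ceh-32* of head epidermis and neurons had 305, 386, 219 and 326 CPM. The muscle factor gene *unc-120* had 153, 198, 125 and 179 CPM, and the Six-family gene *ceh-34* of pharyngeal neurons had 159, 132, 107 and 169 CPM. Culture 3 was lowest for each of these genes. The Otx homeobox gene *ceh-36* had the highest CV of the members with at least 10 CPM, with 45.4, 98.2, 32.9 and 58.2 CPM. The zinc-finger gene *ztf-11* itself had 36.97, 69.6, 30.3 and 41.5 CPM, highest in culture 2 and lowest in culture 3.

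Cuticle genes ranged from the highest levels per kilobase to a few CPM. Of 29 matched late embryo and larval cuticle genes, 20 were detected, against 48.8% of all protein-coding genes, but the median was only 7.11 CPM. The list's summed level of 31351, 20534, 20841 and 26370.0 CPM came mostly from *dpy-17*, *dpy-14* and *cut-2*. The collagen genes *sqt-3* and *dpy-7*, which are needed for body shape from hatching on, had 1058, 621, 774 and 885 CPM and 805, 535, 488 and 744 CPM. In contrast *dpy-13* had 2.78, 1.64, 5.16 and 2.53 CPM and *rol-6* had 2.61, 1.83, 3.18 and 1.40 CPM, collagen genes best known from larval and adult cuticles. None of the 14 members of at least 10 CPM was highest in culture 2, and 6 were lowest there (13 under library totals). With TMM scaling, 53.3% of all transcripts were highest and 29.7% lowest in culture 2. Under library totals, 3115 of all 7280 were highest and 2904 lowest there. Of these 14 members *ram-2* had the highest CV, with 319, 125, 489 and 211 CPM, highest in culture 3.

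Most markers of the mother and of sperm were listed at or near 0, with the limit on values of 0 given above. The vitellogenin gene *vit-2*, a gene with 1 transcript, had no count in any culture. The adult collagen gene *col-19* had 1 culture above 0, at 0.043 CPM in culture 3. The 25 major sperm protein genes had none detected and summed to 1.57, 1.98, 2.93 and 2.103 CPM, but they are near-identical copies, so that uniquely mapped reads need not reflect their level. Of 35 matched sperm genes 2 were detected, *spe-39* with 84.7, 105, 66.5 and 94.7 CPM, a gene with a role in membrane traffic in many cells, and *spe-44* with 2.098, 3.19, 3.14 and 1.60 CPM. Of 9 matched genes on the adult mother list 3 were detected, the epithelial cadherin gene *cdh-3* with 274, 279, 177 and 269.9 CPM, *lim-7* with 163, 137, 136 and 173 CPM and *egl-17* with 7.77, 4.59, 6.52 and 5.78 CPM.

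Tissue markers were next compared. In whole-embryo RNA, fewer cells of a type and less RNA per cell cannot be told apart. The germ lineage list had 23 of 27 matched genes detected, against 48.8% of all protein-coding genes. The helicase gene *glh-1* of germ granules had 74.7, 70.1, 105 and 60.6 CPM, highest in culture 3. In contrast *meg-1*, whose protein drives germ granule assembly in the early embryo, had 53.3, 156, 68.03 and 50.3 CPM and was highest in culture 2. The Nanos gene *nos-2* of the primordial germ cells had 23.9, 67.4, 23.8 and 29.995 CPM, and the maternal repressor gene *pie-1* had 15.9, 38.7, 18.6 and 16.199 CPM, both highest in culture 2. Of 20 members with at least 10 CPM, 19 were highest in culture 2 (18 under library totals), *glh-1* being the exception with TMM scaling. With TMM scaling, 53.3% of all transcripts were highest there, and under library totals 3115 of 7280. The RNA-binding protein gene *car-1* varied least of the genes named, with 344, 396, 386 and 382 CPM.

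Intestinal genes ranged from steady to widely different between cultures. The gut GATA factor gene *elt-2* had 64.99, 73.1, 58.7 and 74.2 CPM (CV 10.8%), and the gut esterase gene *ges-1* had 43.2, 42.3, 44.8 and 46.7 CPM (CV 4.38%). The GATA factor gene *elt-7* varied more, with 8.70, 13.5, 7.49 and 9.54 CPM (CV 26.5%), and *end-1*, given above, had a CV of 70.7%. The microvillar actin gene *act-5* had 1113, 516, 1398 and 858 CPM. The aspartic protease gene *asp-1* had 1179, 471, 1384 and 889 CPM. Both were lowest in culture 2 and highest in culture 3. The transporter gene *pgp-1* had 27.8, 5.36, 44.6 and 14.997 CPM and the metallothionein gene *mtl-1* had 9.36, 1.86, 25.6 and 8.76 CPM, in the same order. Of 21 members with at least 10 CPM, 15 were lowest in culture 2, where 29.7% of all transcripts were lowest. A 2-fold range was seen in 12 of the 21, against 23.9% of all transcripts. Without culture 2, 3 of the 21 had one, and 354 of all 7280. The innexin gene *inx-3*, which is also used in other epithelia, went the other way with 1187, 2152, 1028 and 1444 CPM.

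Muscle genes were mostly lowest in culture 2. The myosin heavy chain genes *unc-54* and *myo-3* had 1537, 939.7, 1816 and 1468 CPM and 1329, 861, 1427 and 1285 CPM, and per kilobase 232 and 201. Both were lowest in culture 2. The troponin I gene *unc-27* had 125, 71.3, 131 and 109.9 CPM, again lowest in culture 2. The integrin gene *pat-3* had 825, 1106, 751 and 889 CPM and was highest in culture 2, and so was the early mesodermal factor gene *hnd-1* with 19.3, 66.3, 22.2 and 28.6 CPM. The light chain gene *mlc-2* had 636, 292, 702 and 512 CPM. Of 23 members with at least 10 CPM, 14 were lowest in culture 2 (18 under library totals), against 29.7% of all transcripts with TMM scaling. Under library totals, 2904 of all 7280 were lowest there. A 2-fold range was seen in 4 of the 23, against 23.9% of all transcripts. Without culture 2, 0 of the 23 had one, and 354 of all 7280. The myogenic factor gene *hlh-1*, with 2 transcripts, had almost no counts, as did the 5-transcript pharyngeal factor gene *ceh-22*.

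Pharyngeal genes were mostly lowest in culture 2. The pharyngeal organ selector gene *pha-4* had 25.4, 21.6, 21.7 and 25.06 CPM (CV 8.76%). The pharyngeal myosin gene *myo-2* had 199, 95.4, 448 and 171 CPM, a range of 4.70-fold between culture 3 and culture 2. The troponin C gene *tnc-2* had 32.6, 15.7, 40.3 and 28.8 CPM in the same order. Genes of the abu family, expressed in the pharynx, ranged up to 42.8-fold. Values were 953, 457, 1064 and 778 CPM for *abu-14*, 71.7, 8.35, 222 and 36.9 CPM for *abu-8* and 12.2, 1.57, 67.2 and 9.31 CPM for *abu-10*. Of 21 members with at least 10 CPM, 16 were lowest in culture 2 and 13 highest in culture 3, against 29.7% and 14.9% of all transcripts. A 2-fold range was seen in 12 of the 21, against 23.9% of all transcripts. Without culture 2, 7 of the 21 had one, and 354 of all 7280.

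The epidermis list had 22 of 35 matched genes detected, against 48.8% of all protein-coding genes, and a median of 18.2 CPM. Its median CV was 18.45%, and 20.2% without culture 2, against 20.99% and 11.8% over all transcripts. The lipocalin gene *lpr-3* of the apical matrix had 2467, 1706, 1529.8 and 2234 CPM. The junction scaffold gene *dlg-1* had 1756, 1463, 1569 and 1767 CPM (CV 9.04%). Among 20 members with at least 10 CPM, 1 had a 2-fold range, against 23.9% of all transcripts. It was the hedgehog-related gene *grd-2*, with 48.1, 20.4, 49.4 and 32.6 CPM. Without culture 2, 0 of the 20 had one, and 354 of all 7280. The nuclear receptor gene *nhr-25* had 15.1, 17.98, 11.9 and 12.9 CPM in the better covered of its 2 transcripts. Of the other defining markers, *lin-26*, *elt-1* and *elt-3* had no count, and *ajm-1* had a mean of 2.37 CPM in its best covered transcript. The 13 members that were not detected all had several transcripts and are not read as absent.

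Most of the matched factors that specify neurons were detected in every culture. The Achaete-Scute type genes *hlh-3* and *hlh-14* had 71.5, 106, 58.0 and 81.7 CPM and 48.2, 81.7, 32.6 and 59.5 CPM. The neurogenin gene *ngn-1* had 61.8, 80.8, 43.3 and 64.3 CPM and the atonal gene *lin-32* had 23.4, 36.9, 19.8 and 32.6 CPM. All 4 were highest in culture 2, next highest in culture 4 and lowest in culture 3. The corepressor gene *unc-37*, the Groucho homolog, had the most reads of the list, 659.6, 1111, 578 and 742 CPM. The zinc-finger gene *egl-46* had 346, 260.1, 225 and 358 CPM and *ham-1* of asymmetric neuroblast division had 219, 369, 215 and 256 CPM. Of 39 matched neurogenic factors 29 were detected, against 48.8% of all protein-coding genes. The 10 that were not detected all had several transcripts. A 2-fold range was seen in 5 of 25 with at least 10 CPM, near the 23.9% of all transcripts. Without culture 2, 0 of the 25 had one, and 354 of all 7280. The LIM homeobox gene *ceh-14* was lowest in culture 2 with 13.3, 5.79, 12.2 and 18.6 CPM.

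Of 43 matched genes of differentiated neurons 22 were detected (51.2%), near the 48.8% of all protein-coding genes. The median was 2.17 CPM. Of the 21 that were not detected, 20 had several transcripts and are not read as absent. Among these were *unc-119*, *rab-3*, *rgef-1*, *unc-25* and *eat-4*, defining markers of the list, all at or near 0. The neuronal members named next were those with most reads or the highest CV. The active zone gene *elks-1* had 344, 356, 325 and 376 CPM and *syd-2* had 327, 320.4, 260.2 and 345 CPM. The dense-core vesicle gene *ida-1* had 357, 182, 461 and 278 CPM. The neuropeptide-processing genes *egl-21* and *egl-3* had 107, 49.1, 138 and 76.7 CPM and 15.1, 6.90, 21.4 and 11.2 CPM. These peptide pathway genes were lowest in culture 2 and highest in culture 3. Of the 14 neuronal members with at least 10 CPM none was highest in culture 2, against 53.3% of all transcripts. Of glial genes, the Prospero homolog gene *pros-1* had 147, 139, 110.3 and 143 CPM and the amphid channel gene *daf-6* had 116, 68.7, 98.6 and 103 CPM, while *hlh-17* of the cephalic sheath glia had 0.729, 0.459, 0.946 and 0.576 CPM. In the excretory system the chloride channel gene *exc-4* had 227, 249, 149 and 214 CPM. The coelomocyte genes *cup-4* and *unc-122* had 34.8, 28.03, 28.4 and 27.9 CPM and 11.9, 6.88, 13.4 and 12.7 CPM.

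**Figure D3:**
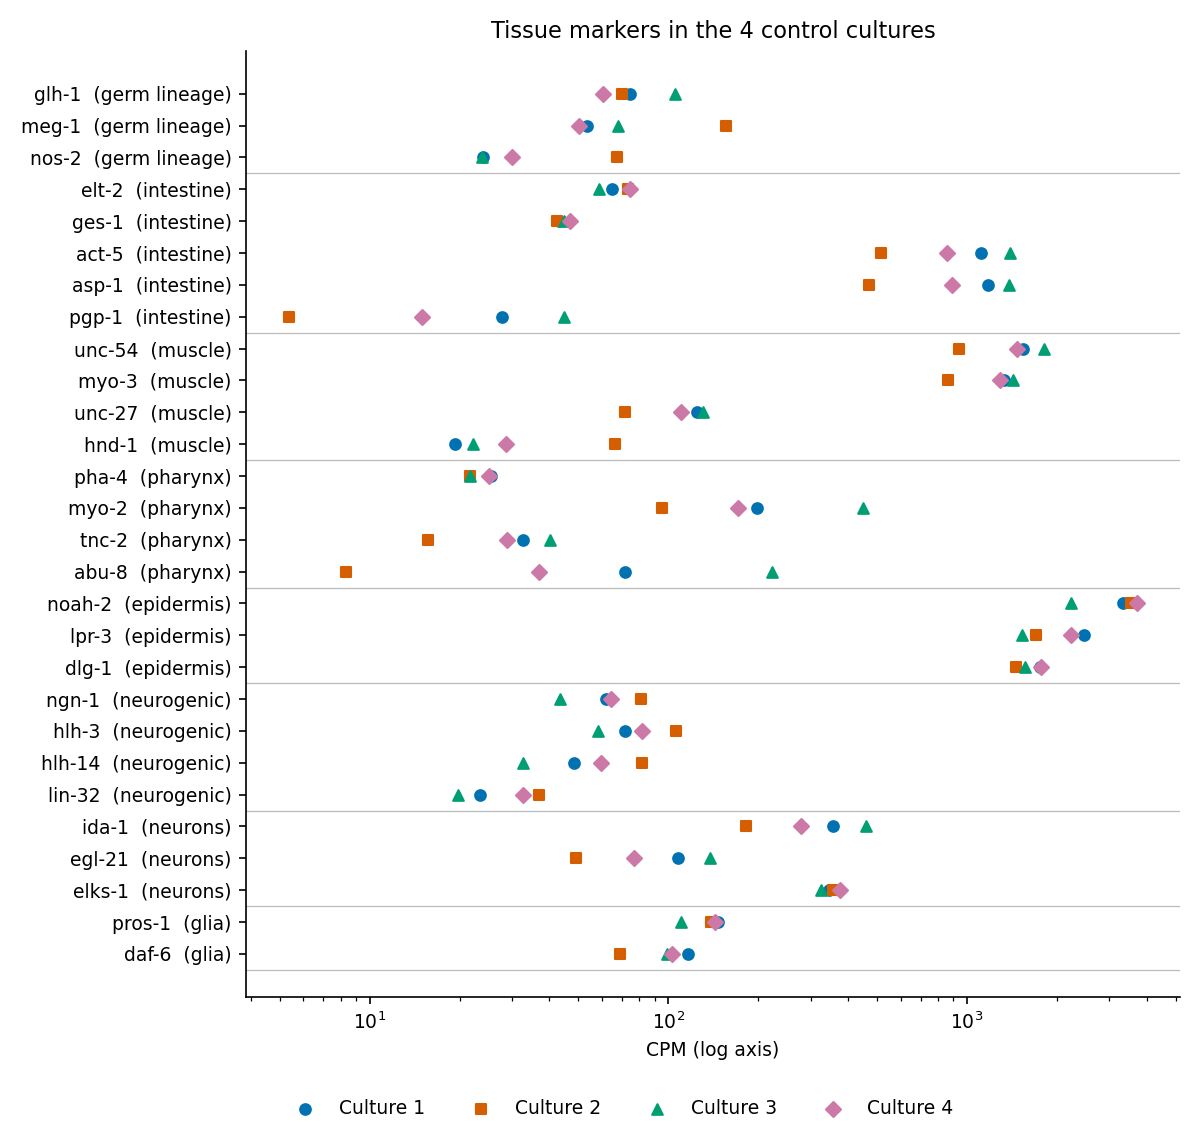
CPM of tissue markers in each of the 4 control cultures (log axis, 1 point per culture). The genes *elt-2*, *ges-1* and *pha-4* have 4 points close together, whereas *act-5*, *asp-1*, *myo-2* and *abu-8* have culture 2 lowest and culture 3 highest.

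Genes of the cell cycle and DNA replication were nearly all highest in culture 2. Cyclin-dependent kinase *cdk-1*, which drives mitosis, had 153, 333, 161 and 163 CPM, and its cyclin gene *cyb-1* had 399.9, 1029, 405 and 499.7 CPM. The replication genes *mcm-2*, a helicase subunit, and *pcn-1*, the sliding clamp, had 179, 587, 223 and 232 CPM and 366, 1041, 411 and 439.5 CPM. Culture 2 was highest for each, 2.17-fold above the lowest culture for *cdk-1* and 3.27-fold for *mcm-2*. The topoisomerase gene *top-2* had 1093, 2588, 1173 and 1216 CPM and the ribonucleotide reductase gene *rnr-2* had 511, 1283, 573 and 578 CPM. Of 38 members of at least 10 CPM, 36 were highest in culture 2 (35 under library totals), against 53.3% of all transcripts with TMM scaling. Under library totals, 3115 of all 7280 were highest there. A 2-fold range was seen in 31 of the 38, against 23.9% of all transcripts. Without culture 2, 0 of the 38 had one, and 354 of all 7280. The summed level was 8262, 18365, 8572 and 9484 CPM.

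Stress and cell death genes gave no such uniform picture. The inducible chaperone gene *hsp-70* had 107, 134, 184 and 117 CPM, and the superoxide dismutase gene *sod-3* had 5.74, 2.17, 11.4 and 4.31 CPM. The glutathione transferase gene *gst-4* had 30.3, 12.96, 28.6 and 28.9 CPM, low in culture 2 and alike in the others. The heat shock gene *hsp-16.2* had no counts, which is not read as absence since only 1 of its 2 listed transcripts was counted. Another gene of its family, *hsp-16.41*, had 211, 376, 182 and 261 CPM, named after its values were seen. In cell death, the BH3 trigger gene *egl-1* had 9.89, 9.80, 15.6 and 14.9 CPM, the caspase gene *ced-3* 42.6, 65.3, 38.01 and 42.9 CPM and the Bcl-2 homolog gene *ced-9* 93.2, 147, 86.4 and 106 CPM. The nucleases *crn-1* and *nuc-1* were highest in culture 2, with 159, 346, 181 and 178 CPM and 118.7, 210.4, 82.5 and 123 CPM.

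The median log2 deviation of a list's members from their own mean over the cultures, minus the same median over all 7280 transcripts, gave each list 1 value per culture. It was highest in culture 2 for the first zygotic genes (0.99), followed by maternal RNAs (0.85), the cell cycle (0.68) and the eggshell (0.64). It was lowest in culture 2 for pharynx (-0.80), intestine (-0.69), neurons (-0.60) and body wall muscle (-0.54). In culture 3 the pharynx list had the highest value, 0.60. Of the genes on the 19 lists 42 stood on more than 1. The lists and their members were chosen by hand, with earlier results of these data known. These values therefore describe the lists and are no test.

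**Figure D4:**
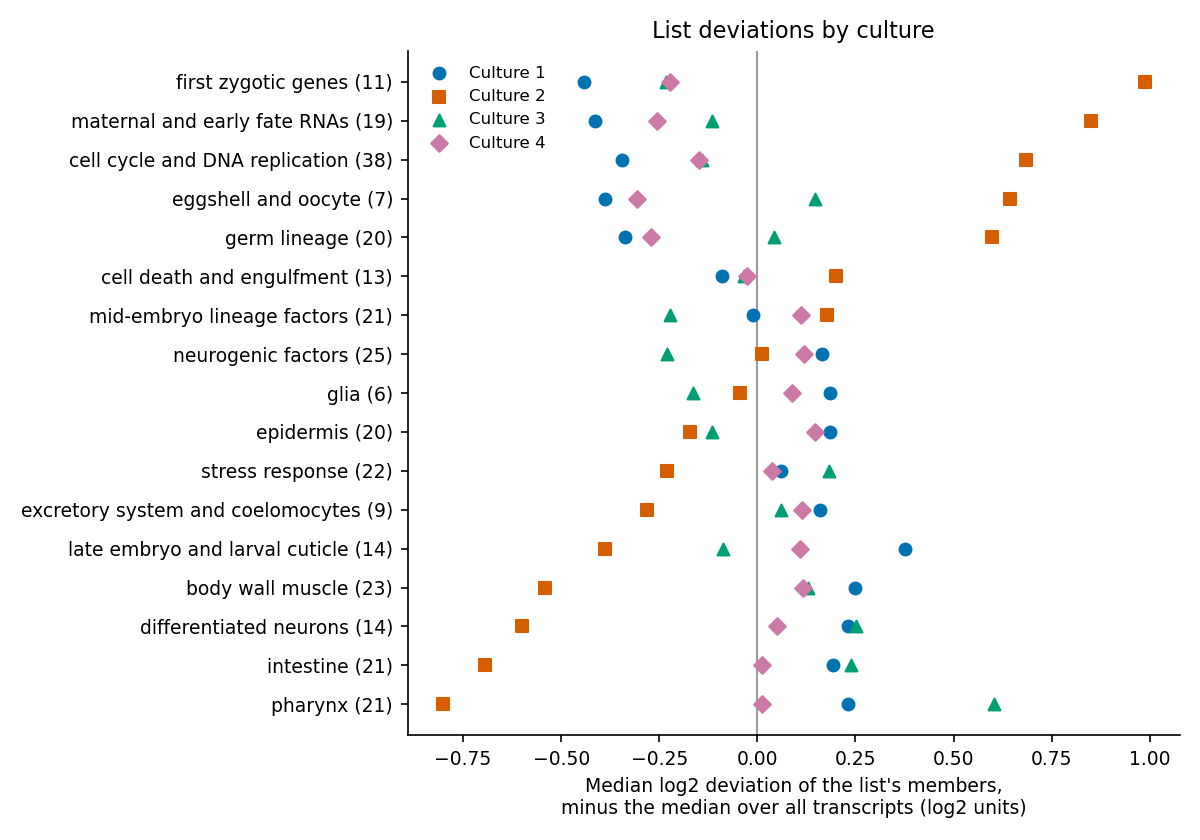
Median log2 deviation of each list's members in each culture, minus the median over all transcripts of at least 10 CPM (number of members in brackets, 1 point per culture). Lists are ordered by culture 2, which lies at 0.99 for the first zygotic genes and at -0.80 for the pharynx.

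Gene families gave a second view. The counts below stand beside these shares of all 7280 transcripts of at least 10 CPM. In culture 2, 53.3% were highest and 29.7% lowest, and 23.9% had a 2-fold range, 354 transcripts without culture 2. Under library totals, 3115 were highest in culture 2. Detected counts stand beside the 48.8% of all protein-coding genes that were detected. Of 59 matched cytosolic ribosomal protein genes 53 were detected, with 4.67% of all counts and a median CV of 10.1%. Of 50 with at least 10 CPM, 43 were lowest in culture 2 and none had a 2-fold range. The 8 chaperonin subunit genes were all detected with a median CV of 6.21%. Proteasome subunit genes, 29 of 29 with at least 10 CPM, were highest in culture 2 (25 under library totals). In the numbered cuticle collagens, 58 of 148 were detected, 32 of 36 with at least 10 CPM were lowest in culture 2 and 31 had a 2-fold range, 22 of them also without culture 2. The member with most reads, *col-74*, had 2622, 1174, 1968 and 1789 CPM, named after its values were seen. F-box genes, which code for substrate adaptors of ubiquitin ligases, had 75 of 91 highest in culture 2 and 75 with a 2-fold range, 9 without culture 2. All 17 neuropeptide-like protein genes of at least 10 CPM were lowest in culture 2.

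Chemoreceptor genes, used by sensory neurons, were mostly not detected. Of 1240 serpentine chemoreceptor genes 19 were detected, against 48.8% of all protein-coding genes with counts summed per gene. Of 257 nuclear hormone receptor genes 108 were, or 42.02%. Among noncoding classes, 13 of 13405 piRNA loci were detected, 19 of 345 snoRNAs, 4 of 257 miRNAs, 27 of 182 lncRNAs and 102 of 7332 other noncoding RNAs. A poly(A)-selected library does not capture mature small RNAs, so these shares describe the library. The long noncoding RNA *linc-16*, which had the most reads of its family and is also named after its values were seen, had 392, 517, 324 and 451 CPM.

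Between the cultures, 13819 of the 14483 transcripts with a mean of at least 10 counts (95.4%) varied beyond counting error in a chi-square test with Benjamini-Hochberg adjustment. The median CV over 7280 transcripts of at least 10 CPM was 20.99%, with quartiles of 13.93% and 30.97%, where counting error alone gives a median of 2.08%. A 2-fold range between the highest and the lowest culture was seen in 1743 transcripts (23.9%), a 4-fold range in 284 and a 10-fold range in 89. Without culture 2, the median CV was 11.8% over transcripts with a mean of at least 10 CPM in the remaining cultures. Of these, 396 had a 2-fold range, 105 a 4-fold and 12 a 10-fold range. Of the 7280 transcripts above, 354 had a 2-fold range without culture 2. Culture 2 was the highest or lowest in 1698 of the 1743. It was highest in 968 and lowest in 730, against 585 and 1032 under library totals. Over all 7280 transcripts, culture 2 was highest in 3877 (53.3%) and lowest in 2163 (29.7%), and library totals alone gave 3115 and 2904.

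**Figure D5:**
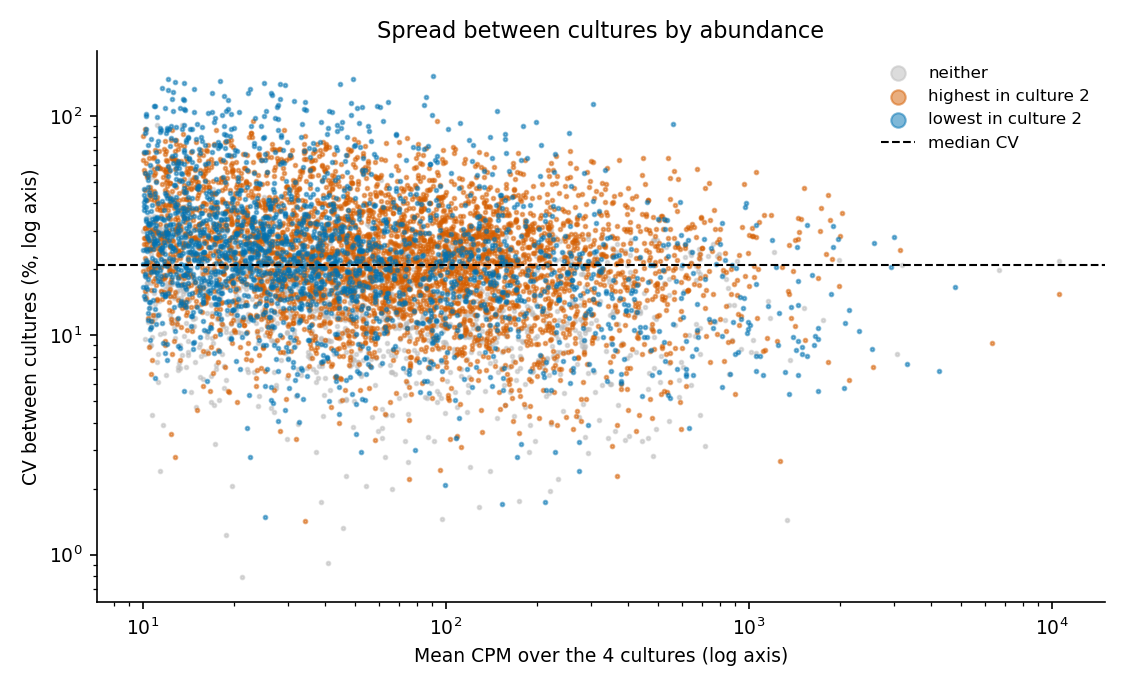
CV between the 4 control cultures against mean CPM for the 7280 transcripts of at least 10 CPM (both axes log, 1 point per transcript, dashed line at the median CV of 20.99%). Transcripts lowest in culture 2 (blue) fill the top of the range, and none of those highest in culture 2 (orange) has a CV over 100%.

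The most variable named transcripts followed one order. *Y38E10A.14* had 47.2, 4.49, 296 and 14.1 CPM. The neuropeptide-like gene *nlp-27* had 16.8, 1.26, 87.4 and 7.76 CPM, and the transthyretin-like gene *ttr-26* had 9.78, 1.42, 56.4 and 4.08 CPM. The collagen genes *col-147* and *col-42* had 6.91, 1.01, 39.8 and 3.30 CPM and 25.09, 4.37, 137 and 11.4 CPM. The tubulin gene *tbb-6* had 7.35, 0.652, 42.5 and 4.28 CPM. In each, culture 3 was highest by far, followed by culture 1, culture 4 and culture 2. The same order held for *nspe-7*, *Y47H10A.5*, *Y37H2A.14* and *abu-10*, with CVs between 133% and 153% over the 10. All 64 transcripts with a CV over 100% were highest in culture 3 and lowest in culture 2.

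At the stable end, 924 transcripts (12.7%) had a CV under 10%. The lowest, *rib-1*, an enzyme gene of heparan sulfate synthesis, had 21.2, 21.1, 21.04 and 21.4 CPM, a CV of 0.787% that lies below its counting error. *Y48E1C.2*, *fbxc-53*, *nhr-122*, *pifk-1B*, *F22B7.9*, *Y92H12BL.5*, *etfb-1* and *ZK550.6* also did not vary beyond counting error. Counting error is smaller for abundant transcripts. Of 2357 transcripts of at least 100 CPM, 452 (19.2%) had a CV under 10%. The lowest was *srlf-1*, with 1352, 1341, 1352 and 1311 CPM. The citrate synthase gene *cts-1* had 1281, 1302, 1252 and 1224 CPM, the succinate dehydrogenase gene *sdhb-1* 231, 234, 231 and 242 CPM and the actin-nucleation gene *arx-1* 212, 209, 218 and 212 CPM. The chaperonin gene *cct-2* had 492, 487, 463 and 490.3 CPM. The 4 genes *cts-1*, *sdhb-1*, *arx-1* and *cct-2* were chosen after their values were seen.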

How the data were processed

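Stranded mRNA libraries were made from embryos of 4 independent control cultures and sequenced as paired reads. The authors trimmed adaptors, mapped the reads to *ce10* with TopHat2 and deposited raw counts of uniquely mapped reads per RefSeq transcript from featureCounts, with no normalization (versions and settings are not given in the sources used here). The 4 knockdown libraries were not used. Every row names a transcript, so none was left out of the totals.

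Counts were scaled by TMM in edgeR 4.0.16 (R 4.3.3) over the 4 control libraries and given as CPM. A transcript was called detected at 1 CPM or more in all 4. Log2 values are log2(CPM + 0.1). Variation beyond counting error was tested per transcript with a chi-square test on 3 degrees of freedom, for a mean of at least 10 counts, called at 0.05 after adjustment by Benjamini and Hochberg. CVs and 2-fold ranges used transcripts with a mean of at least 10 CPM. The test was tried on simulated data with known answers.

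Symbols came from a RefSeq gene table (45715 transcripts, 87.6% of counts) and, for 183 transcripts, from a supplementary table of the study, and 4708 transcripts had none. Exonic lengths came from the Ensembl annotation of WBcel235, a later build, for lengths only. Of 565 genes on 19 lists, 37 were not matched by name. A gene with several transcripts was read from the one with the highest mean count. Members and lists were chosen with earlier results of these data known.

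The genes named were taken from the 20 named transcripts with most reads, the defining markers, and the 10 highest and 10 lowest CVs. Of each list, the 3 members with most reads and the 2 with the highest CV were added. Others are said to be chosen after their values were seen. Not every gene that met the rule is printed. Defining markers not printed above were *pgl-1*, *hsp-4*, *vit-6* and *msp-3* with no count. Further ones were *ifb-2*, *aqp-8*, *ced-4*, *spe-11* and *gsp-3* with means under 1 CPM. No value is given for *unc-15*, *unc-17* and *ptr-10*, which were also planned as markers. As above, a value of 0 is not read as absence. The alternatives were library totals, the size factors of DESeq2 1.42.0, other filters, counts summed per gene, and each library left out. Libraries of 39494873 to 45609675 counts leave a median counting error of 2.08%, well under the spread between cultures. Intervals from counts cover counting error only.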

Additional observations from a re-analysis of the deposited data

Results flagged for a closer look

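In a group of 4 samples, the gap between the most distant sample and its nearest neighbour, divided by the whole range, passes Dixon's 95% critical value in about 1 in 20 groups by chance. Of 150 detected transcripts that met the rule for named genes and 19 list sums examined, 39 had such a ratio. Of the transcripts, 42 were chosen for a high CV, and 17 of these had such a ratio, so the count cannot be set against the chance rate. Of the other 108 transcripts, 18 had one. All 169 rest on the same 4 libraries and are not independent of each other. The ratio is given in brackets.

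Culture 2 lay far above the other cultures for transcripts of the oocyte, the germ lineage and the first zygotic genes. These were *oma-1* (0.863), *spn-4* (0.924), *mex-6* (0.857), *pie-1* (0.879), *meg-1* (0.833), *nos-2* (0.858), *clec-87* (0.882), *gna-2* (0.926), *end-1* (0.96), *tbx-37* (0.85), *pes-10* (0.88), *vet-6* (0.958), *vet-1* (0.922) and *ceh-51* (0.874). The same was seen for transcripts of the cell cycle and DNA replication, *cdk-1* (0.948), *cyb-1* (0.841), *cyb-2.1* (0.939), *cyb-2.2* (0.958), *mcm-2* (0.87), *mcm-7* (0.866), *pcn-1* (0.891), *rnr-2* (0.913) and *top-2* (0.917), and for the nuclease gene *crn-1* (0.882). The summed levels of 4 lists had culture 2 apart in the same direction, maternal and early fate RNAs (0.887), eggshell and oocyte (0.868), first zygotic genes (0.914) and cell cycle and DNA replication (0.879). Among abundant transcripts it was also the high one for *eef-1A.1* (0.863) and *atp-2* (0.832), where the ranges were 1.38-fold and 1.14-fold. It was the low one for *gst-4* (0.902).

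Culture 3 lay far above the others for *Y38E10A.14* (0.854), *ttr-26* (0.848), *col-147* (0.848), *col-42* (0.844), *Y37H2A.14* (0.831) and *abu-10* (0.839), all among the most variable transcripts. It was the low one for the cadherin gene *cdh-3* (0.908). Culture 1 was the high one for the coelomocyte gene *cup-4* (0.931), with a range of 1.25-fold.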

How the results depend on the processing

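No paired analysis was possible because only 1 group of libraries was described, and replicate numbers pair no libraries within it.

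The number of detected transcripts, of transcripts of at least 100 CPM, in each abundance class and beyond counting error was recomputed. All stayed within 1.5 times under library totals, DESeq2's size factors and each library left out. Other filters were tried for detected transcripts and those beyond counting error, and stayed within 1.5 times. Of these numbers, only detected transcripts and abundance classes were recomputed with counts summed per gene, with the same outcome. The number with a 2-fold range was 1743. It was between 396 and 1738 with 1 culture left out, lowest without culture 2. It was 4463 for a mean of at least 1 CPM and 317 for at least 100 CPM, filters that change how many transcripts are counted. The median CV lay between 11.8% and 24.4% with 1 culture left out, again lowest without culture 2. Under library totals 585 transcripts had a 2-fold range with culture 2 highest, against 968, and the median log2 deviation of all transcripts in culture 2 was 0.01 instead of 0.15. The deviation of each of the 19 lists in culture 2, relative to all transcripts, kept its sign in all 38 recomputed values. These comparisons of culture 2 under other scalings were added after seeing the data. Of the mean levels of named transcripts, 1046 recomputed values moved by no more than 1 SD and 22 by more. Most of these values come from leaving 1 of 4 cultures out. Apart from rescaling, that cannot move a mean by 1 SD of those cultures, so for these settings the count is no check. Of the list medians 133 moved by no more than 1 SD and 19 by more, most when only genes with 1 transcript were kept. With 4 cultures, and 1 apart from the rest, an SD rests on few values, and at 0.0215 to 0.0250 CPM a read, levels well under 1 CPM rest on few reads.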
